A study of Mus musculus with 3 samples.

Results

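Lung tumours that carried the guide RNA against Apc were followed in mice of 3 genotypes. They were chosen as all barcodes listed for Apc#1, the 1 Apc guide of a pool of 13 guides, a rule that uses no measured value. The guide had 54689 listed barcodes out of 1318841 in 17 mice. Of these, 2548 reached 500 neoplastic cells, out of 57536 tumours of that size for all guides, and these 2548 are called Apc tumours. Tumours of the 5 inert guides (the non-targeting NT1 and NT2, and Neo1, Neo2 and Neo3 against a neomycin sequence), 29056 of at least 500 cells, served as the reference in the same mouse.

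Apc is a scaffold of the cytoplasmic complex that marks beta-catenin for destruction, and so holds back Wnt signalling. When Apc is lost, beta-catenin builds up and enters the nucleus, where it works with TCF and LEF factors on Wnt target genes. APC is a tumour suppressor best known from the intestine.

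Each lentiviral vector of the pool delivered Cre recombinase, which started a tumour in the lung epithelium, together with 1 guide and a random barcode, a design known as Tuba-seq. By the usage of this field, T in the genotype names stands for a fluorescent reporter switched on by Cre, C for Cas9 and P for p53 alleles that Cre deletes. All groups carry K and T. KT mice (4, 2 female and 2 male) lacked Cas9, so that the guide could not cut. KT;Cas9 mice (KTC, 9, 5 female and 4 male) had Cas9 and wild-type p53, and KPT;Cas9 mice (KPTC, 4, all male) had Cas9 and lost p53 in the same cells. All lungs were taken 15 weeks after infection with the same pool, per the labels. The sources used here give neither strain nor age. KPTC and KT mice differ in Cas9, in p53 and in the mix of sexes, which cannot be told apart between them. KPTC and KTC mice differ in the mix of sexes as well as in p53. No value shows in which Apc tumours the gene was cut. With 1 guide, an effect on Apc and any other effect of that guide cannot be told apart.

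Each mouse was 1 replicate. Barcode reads per mouse ran from 338871 to 10456649, and 1 read was worth from 1.08 cells (KT mouse 4) to 132 cells (KPTC mouse 1), where 500 cells rested on 3.80 reads. Inert tumours numbered from 29 (KTC mouse 6) to 7075 (KT mouse 1). The 2 KTC mice with the fewest Apc tumours, mouse 6 with 4 and mouse 7 with 18, had the highest Apc ratios for size and burden, and the main KTC results are also given without them.

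The largest Apc tumour of 6 of the 17 mice is shown by its barcode, because single tumours held much of the Apc cell mass in some mice. These 6 were chosen after their values were seen and are not the 6 largest of all. Every barcode had 30 bases, with fixed bases in lower case and the 4 blocks of random bases in capitals.
KTC mouse 7: gcATTGAtaTGTAAgcTTGTTtaTGATAgc
KTC mouse 4: gcGGAACtaTAGATgcTATTAtaAGTGAgc
KTC mouse 2: gcGCCAGtaAGACTgcCAAACtaTACCGgc
KPTC mouse 1: gcACTTGtaTGGTAgcGGCTAtaTTTGAgc
KPTC mouse 4: gcGTCAAtaCTGAGgcTAGGGtaGGCTAgc
KT mouse 3: gcGTTGTtaAGATGgcTAAGGtaTGTTTgc

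The tumour in KTC mouse 7 had 66837.7 cells, held 63.0% of the Apc cells of that mouse and was the largest tumour of any guide there. The tumours shown for KTC mice 4 and 2 had 88338.7 and 122754 cells and ranked 2 and 4 among all tumours of their mice. In KPTC mouse 1 the tumour had 690211 cells, and in KPTC mouse 4 it had 187496 cells and held 53.0% of the Apc cells. Among those not shown, the largest Apc tumour of KPTC mouse 2 had 212842 cells, and that of KTC mouse 6, with 3547 cells, held 51.9% of the Apc cells. The largest Apc tumour of any KT mouse, in mouse 3, had 143098 cells and held 13.3% of the Apc cells. Of the barcodes shown, that of KTC mouse 7 was listed for Apc#1 in 3 mice, at any size. Those of KTC mouse 2 and KPTC mouse 4 were listed in 2 mice each, and the others in 1 mouse. Over all mice, the largest Apc tumour held 9.04% ± 5.93 of the Apc cells in the 4 KT mice, 29.3% ± 19.0 in the 9 KTC mice and 31.8% ± 15.0 in the 4 KPTC mice (SD each). Genotypes also differed in the number of Apc tumours (89 to 571 per KT mouse, 4 to 199 per KTC mouse, 38 to 274 per KPTC mouse), and a share held by 1 tumour depends on that number, so these shares were not tested.

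The first question was whether Apc tumours were larger where Cas9 could act. By log-normal mean size they were, by 1.66-fold in KTC and 1.72-fold in KPTC mice, relative to inert tumours and to KT mice. With all mice and a minimum of 500 cells, the median was called in neither genotype. The geometric mean was not called in KPTC mice, as given below. Size was the mean of a log-normal distribution fitted by maximum likelihood to the tumours of at least 500 cells. This mean rises with the spread of log size as well as with its average. In KT mice 1 to 4, Apc tumours had mean sizes of 1968, 1414, 2099 and 1515 cells, beside 1797, 1477, 1765 and 1325 cells for inert tumours. Without Cas9 the log2 ratio of Apc to inert size was 0.13 ± 0.14 (SD, n = 4), above 0 in 3 of 4 mice (exact two-sided sign-flip test, p = 0.25, where 0.125 is the smallest p for 4 mice).

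In KTC mice the Apc size had a lowest value of 1645, a median of 2799 and a highest value of 3566 cells, whereas inert sizes ran from 666 to 1699 cells with a median of 1469.8. The log2 ratios of the 9 mice ran from 0.44 (mouse 5) to 1.37 (mouse 7), with a median of 0.83. Every KTC ratio lay above the highest KT ratio, 0.25. The mean was 0.86 ± 0.32 (SD, n = 9), and the difference from KT was 0.74 on the log2 scale, or 1.66-fold (95% interval 1.27 to 2.18). It passed the exact two-sided permutation test of mouse labels (p = 0.0014, adjusted over the 4 targeted genes 0.0028). Without mice 6 and 7, which had the highest ratios, the difference was 0.59 (1.51-fold, exact permutation, adjusted p = 0.0040).

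In KPTC mice 1 to 4, Apc tumours had mean sizes of 3988, 2970.1, 6506 and 3703 cells and inert tumours 2056, 2265, 2768 and 1793 cells. The log2 ratios were 0.96, 0.39, 1.23 and 1.05, all above every KT ratio, with mouse 2 well below the other three. The mean of 0.91 ± 0.36 (SD, n = 4) differed from KT by 0.78, or 1.72-fold (95% interval 1.10 to 2.46), at the smallest p that 4 against 4 mice allow (exact permutation, p and adjusted p = 0.029). The call was lost without any 1 of the KT mice (exact permutation, adjusted p = 0.057), with all KPTC mice still above the KT mice left. It was also lost with the geometric mean, which leaves out the spread (1.25-fold).

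**Figure D1:**
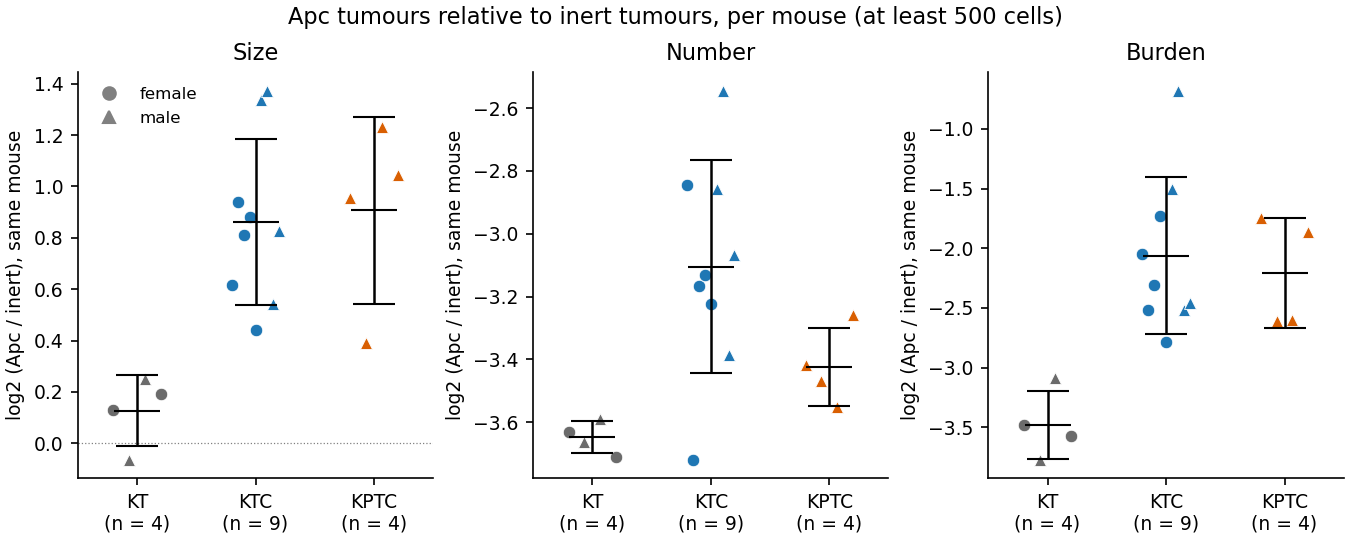
Log2 ratio of Apc to inert tumours of the same mouse for log-normal mean size (left), number (middle) and summed cells, or burden (right), with tumours of at least 500 cells. Circles are female and triangles male mice, and black bars give the mean ± SD over mice. For size and burden all KTC and KPTC mice lie above all KT mice, while for number 1 KTC mouse lies below them, at -3.72.

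No difference in the size ratio passed between mice with and without p53. The difference in log2 size between KTC and KPTC mice was -0.04, with a 95% interval from -0.48 to 0.42 (exact permutation, p = 0.83). The interval spans 0.717-fold to 1.34-fold, so true differences inside that range were not rejected with these 9 and 4 mice. The KPTC values lay within the range of the KTC values except that of mouse 2, which was lower than every KTC mouse. In absolute cells, Apc tumours averaged 4292 ± 1537 cells in KPTC (SD, n = 4) and 2469.8 ± 715 in KTC (SD, n = 9), and inert tumours also averaged more in KPTC, 2221 ± 413 against 1349.6 ± 325 cells.

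The inert guides set the level that 1 guide without a target gave. Each inert guide against the other 4 differed from KT, on the log2 scale, by -0.10 to 0.19 in KTC mice and by -0.06 to 0.05 in KPTC mice. At an unadjusted exact permutation p under 0.05, 53.8% of the 13 guides of the pool (7) were larger in KTC than in KT, and 46.2% (6) in KPTC. Apc#1 was among them in both comparisons, and 0 of the 5 inert guides were in either. Against each inert guide alone, Apc#1 was 1.50-fold to 1.77-fold larger in KTC than in KT, and all 5 ratios passed (exact permutation, adjusted p from 0.0035 to 0.017). In KPTC the 5 ratios were 1.67-fold to 1.77-fold and 3 passed, while those to NT1 and Neo1 did not (exact permutation, adjusted p = 0.071 and 0.086).

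The size ratio was then taken at 7 percentiles of the size distribution. In KTC mice the Apc ratio lay above that of KT mice at the 80th (1.58-fold), 90th (1.90-fold) and 95th percentile (2.02-fold), with adjusted p = 0.045, 0.013 and 0.0093 by exact permutation. At the 50th, 60th and 70th percentiles it did not pass, at 1.28-fold, 1.33-fold and 1.34-fold, where exact permutation gave adjusted p = 0.084, 0.067 and 0.10. At the 99th the value was 2.24-fold (exact permutation, adjusted p = 0.073), where the KTC ratios had an SD of 0.84 on the log2 scale. The 95th percentile call was lost at minimum sizes of 1000 cells (exact permutation, adjusted p = 0.073) and 5000 cells (adjusted p = 0.35) and in male mice (adjusted p = 0.27), and held without mice 6 and 7 (1.77-fold, adjusted p = 0.015). The 50th percentile passed at a minimum of 200 cells (1.18-fold, exact permutation, adjusted p = 0.0093) and without mice 6 and 7 (1.25-fold, adjusted p = 0.044).

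At the 95th percentile the KT mice 1 to 4 had Apc tumours of 8982, 4291, 8644 and 3900.5 cells and inert tumours of 7296, 5097, 5713 and 4210.1 cells, so that 2 of the 4 ratios were below 0 on the log2 scale. KTC mice had log2 ratios from 0.51 (mouse 9) to 1.84 (mouse 6), and 8 of 9 lay above every KT mouse. In KTC mouse 2, for example, the 95th percentile was 17148.9 cells for Apc and 5140 cells for inert tumours, and in mouse 9 it was 9663 and 6799.9 cells. Mouse 9 and mouse 6 had the highest ratios at the 50th percentile, 0.97 and 0.96, where the other KTC mice were at 0.06 to 0.36. In mouse 9 the log2 ratio was between 0.90 and 1.07 from the 50th to the 90th percentile, and 0.51 and 0.047 at the 95th and 99th.

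In KPTC mice the 90th percentile (1.76-fold) and the 95th (1.89-fold) passed, both at an adjusted p = 0.029 by exact permutation, with all 4 mice above every KT mouse. The 50th percentile was at 1.13-fold (exact permutation, adjusted p = 0.37). The 80th was at 1.69-fold with an SD of 0.81 on the log2 scale (exact permutation, adjusted p = 0.086), and the 99th at 2.21-fold (exact permutation, adjusted p = 0.057). The 95th percentile call ended without any 1 KPTC mouse (exact permutation, adjusted p = 0.057), and in 8 of the 17 other settings tried (adjusted p up to 0.14), among them minimum sizes of 200, 1000 and 5000 cells and shared barcodes left out. Of the 4 targeted genes, 75% (3) passed at the 95th percentile in KTC and 100% (4) in KPTC. KTC and KPTC did not pass against each other at any of the 7 percentiles (exact permutation, adjusted p of at least 0.34). No test compared one percentile with another, and tumours that newly pass 500 cells enter at the low end of this scale.

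**Figure D2:**
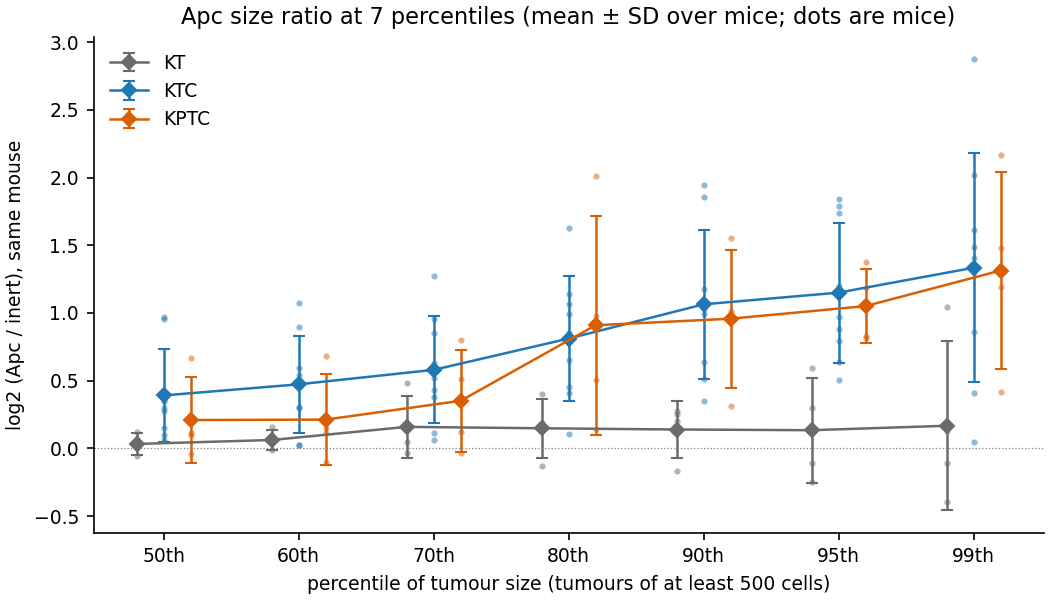
Log2 ratio of Apc to inert tumour size of the same mouse at the 50th to the 99th percentile of tumours of at least 500 cells. Small dots are mice, diamonds and bars the mean ± SD of KT (n = 4), KTC (n = 9) and KPTC (n = 4) mice. KT means stay between 0.03 and 0.17, while KTC means run from 0.39 at the 50th to 1.33 at the 99th percentile.

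The spread of sizes, which also enters the log-normal mean and so is not separate from it, differed as well. The SD of the natural log of tumour size was 0.81 ± 0.12 for Apc and 0.77 ± 0.07 for inert tumours in KT mice (SD over mice, n = 4). In KTC mice it was 0.98 ± 0.21 for Apc and 0.68 ± 0.18 for inert tumours (SD, n = 9), and in KPTC mice 1.33 ± 0.16 and 1.02 ± 0.09 (SD, n = 4). The excess of Apc over inert tumours was 0.25 higher in KTC than in KT (exact permutation, adjusted p = 0.013, 7 of 9 mice above every KT mouse) and 0.27 higher in KPTC (exact permutation, adjusted p = 0.029, 4 of 4). The KTC call was lost without KT mouse 2 (0.22, exact permutation, adjusted p = 0.055). It was also lost at minimum sizes of 1000 cells (0.26, adjusted p = 0.057) and 5000 cells (0.05, adjusted p = 0.85) and in male mice (0.30, adjusted p = 0.27), all by exact permutation, and held without mice 6 and 7 (0.19, adjusted p = 0.020). The KPTC call was lost without KT mouse 1, 2 or 4 (exact permutation, adjusted p = 0.057) and in 5 of the 17 other settings (adjusted p up to 0.34), among them 5000 cells and shared barcodes left out.

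Pooled over mice, with no test, 8.09% of the 1285 Apc tumours in KT mice reached 5000 cells, beside 7.0% of inert tumours. In KTC mice 13.3% of the 691 Apc tumours and 5.36% of inert tumours reached this size, and in KPTC mice 16.6% of the 572 Apc tumours and 11.6% of inert tumours. At 20000 cells the KTC shares were 2.60% (18 Apc tumours) and 0.432% (30 inert tumours), and the KPTC shares 6.12% (35) and 2.61% (161). The KT shares at that size were close to each other, 0.778% (10) and 0.690% (110), but at 9976.3 cells they were 3.19% and 2.19%. Tumours of at least 100000 cells were few, with 2 Apc tumours in KT, 1 in KTC and 9 in KPTC. Beside them stood 5, 2 and 14 inert tumours, out of 9, 13 and 131 tumours of all guides.

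**Figure D3:**
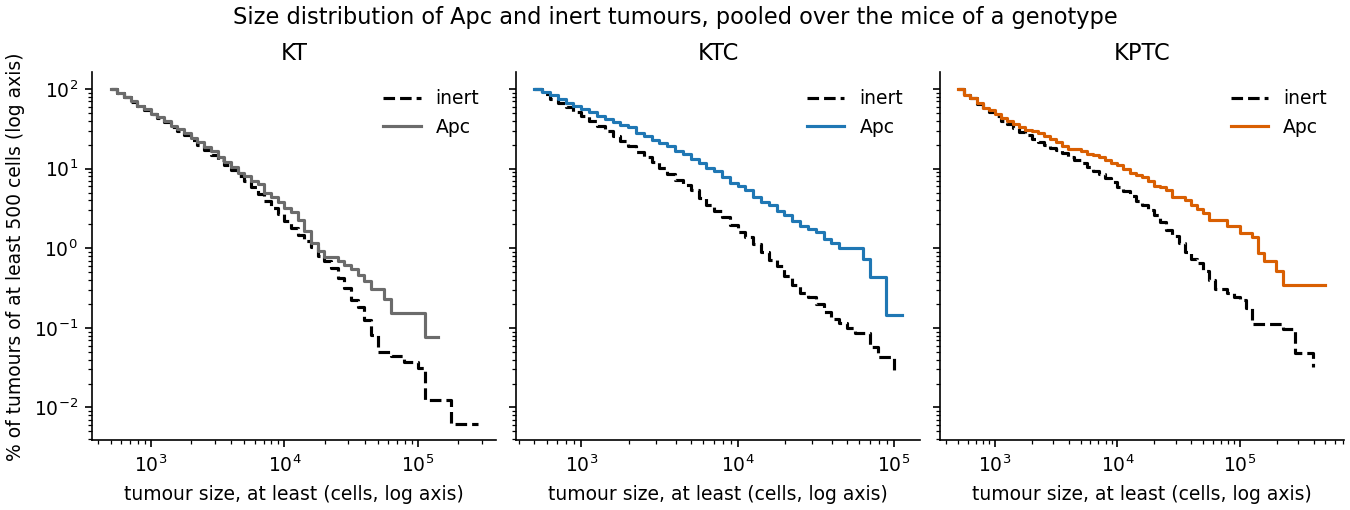
Share of tumours of at least 500 cells that reached a given size, pooled over the mice of a genotype, for Apc (solid) and inert tumours (dashed). Both axes are logarithmic. At 20000 cells the curves lie close together in KT (0.778% of Apc and 0.690% of inert tumours) and apart in KTC (2.60% and 0.432%) and KPTC (6.12% and 2.61%). At 9976.3 cells the KT curves lie farther apart (3.19% and 2.19%).

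The second measure was the number of Apc tumours, which asks whether more of them reached 500 cells. In KT mice the log2 ratio of Apc to inert number gives the guide's share of the virus, and it was even over the mice, at -3.63, -3.66, -3.59 and -3.71. In KTC mice the ratios ran from -3.72 (mouse 2) to -2.54 (mouse 7) with a median of -3.13. All but 1 KTC mouse lay above every KT mouse, and mouse 2, with 199 Apc and 2622 inert tumours the best sampled of the 9, lay below all of them. KTC mice had 1.46 times the relative number of KT mice (log2 difference 0.54, 95% interval 1.13 to 1.91-fold, exact permutation, p = 0.013, adjusted 0.025). The call was lost without KT mouse 2 or 4 (exact permutation, adjusted p = 0.061 and 0.068). Without KTC mice 6 and 7 the value was 1.35-fold (exact permutation, adjusted p = 0.033).

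The KPTC ratios were -3.42, -3.47, -3.55 and -3.26, all above the KT mice, though mouse 3 exceeded the highest KT mouse by little. The number was 1.17-fold higher in KPTC than in KT (log2 difference 0.22, 95% interval 1.03 to 1.37-fold, exact permutation, adjusted p = 0.038). This call was lost without any 1 KT mouse or KPTC mouse 3 (exact permutation, adjusted p = 0.057 to 0.11), and when adjusted over the 8 targeting guides (exact permutation, adjusted p = 0.057). Among the 13 guides, 46.2% (6) were more numerous in KTC and 23.1% (3) in KPTC at an unadjusted exact permutation p under 0.05, Apc#1 included in both and 0 of the 5 inert guides in either. In number, each inert guide against the other 4 differed from KT by -0.13 to 0.14 (log2) in KTC and by -0.17 to 0.07 in KPTC. The lowest, NT1 in KPTC, lay below every KT mouse in 4 of 4 mice (exact permutation, p = 0.029, adjusted over the 5 inert guides 0.14). Against each inert guide alone the KTC excess was 1.35-fold to 1.57-fold and passed for all 5 (exact permutation, adjusted p = 0.028 to 0.031). The KPTC excess was 1.12-fold to 1.29-fold and passed for 0 of 5 (exact permutation, adjusted p = 0.071 to 0.23), with 2 of 5 at an unadjusted p under 0.05. The difference between KTC and KPTC was 0.32 on the log2 scale (95% interval -0.08 to 0.71, exact permutation, p = 0.098). It passed without KTC mouse 2 (0.40, exact permutation, adjusted p = 0.019).

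Barcodes found in several mice bear on this count, and whether such a barcode marks a separate tumour in each mouse was not tested. Of the Apc tumours, 53.4% carried a barcode that Apc#1 also had in another mouse at any size, beside 17.9% of inert tumours. By genotype the share was 50.1% (KT), 57.9% (KTC) and 55.4% (KPTC mice), and 17.1%, 18.3% and 19.4% for inert tumours. With these barcodes left out everywhere, the number ratio against KT was 1.18-fold in KTC and 1.01-fold in KPTC mice, where exact permutation gave adjusted p = 0.15 and 0.94. The size difference was then 1.80-fold in KTC and 1.98-fold in KPTC mice, with adjusted p = 0.018 and 0.057 by exact permutation. Larger size in KTC mice was therefore also seen in Apc tumours whose barcode occurred in 1 mouse, while a higher number at 500 cells was not detectable among them.

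In KTC mice the number excess was larger at larger minimum sizes, a trend that was not tested. Over all listed barcodes, which include groups of cells far below 500, the Apc share in KTC was at 0.994 times that in KT (log2 difference -0.01, exact permutation, adjusted p = 0.98). At a minimum of 5000 cells, KT mice 1 to 4 had 58, 13, 30 and 3 Apc tumours beside 620, 178, 268 and 50 inert tumours, with log2 ratios from -4.06 to -3.16. KTC mice had from 2 to 27 Apc tumours beside 7 to 142 inert tumours, except mouse 6, which had none of either and gave no ratio. The 8 KTC ratios ran from -2.58 (mouse 8) to -0.81 (mouse 1) with none below a KT ratio, and the excess was 3.43-fold (95% interval 2.06 to 5.87, exact permutation, p = 0.0020, adjusted 0.0027). Without KTC mice 6 and 7 it was 3.23-fold (exact permutation, adjusted p = 0.0040). It was 2.88-fold without the shared barcodes (exact permutation, adjusted p = 0.0027). All 4 targeted genes (100%) passed at this minimum in KTC.

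In KPTC mice 1 to 4 at least 5000 cells were reached by 49, 27, 10 and 9 Apc tumours and by 305, 310, 69 and 35 inert tumours. The log2 ratios were -2.64, -3.52, -2.79 and -1.96, and mouse 2 lay within the KT range. The excess over KT was 1.84-fold (95% interval 0.778 to 4.29), which exact permutation did not call (adjusted p = 0.086). It passed without KPTC mouse 2 (2.21-fold, exact permutation, adjusted p = 0.038). At this minimum 0% of the 4 targeted genes passed in KPTC, with 2 of 4 at an unadjusted exact permutation p under 0.05. The KTC excess was 1.87 times the KPTC one (log2 difference 0.90, 95% interval 1.06 to 3.36-fold, exact permutation, p = 0.032, adjusted 0.065). That difference passed without KTC mouse 8 (2.02-fold, exact permutation, adjusted p = 0.048) or KPTC mouse 4 (2.23-fold, exact permutation, adjusted p = 0.036).

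At a minimum of 20000 cells 6 KTC mice and 3 KT mice had a ratio. The KTC mice were 5.49-fold higher (95% interval 1.23 to 28, exact permutation, adjusted p = 0.048), with 6 of 6 above every KT mouse. These ratios rest on 1 to 8 Apc and 1 to 9 inert tumours per KTC mouse, and the call was lost in 10 of the 13 settings that left out 1 mouse (exact permutation, adjusted p up to 0.14). Without KT mouse 1, whose ratio of -4.81 was the lowest, the value was 3.26-fold. KTC mice 1 and 7 each had 1 Apc tumour and no inert tumour of this size and so gave no ratio.

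At a minimum of 1000 cells KTC mouse 6 had 2 Apc tumours and 1 inert tumour, a log2 ratio of 1.0, while the other KTC mice ran from -3.47 to -2.32. All 9 lay above every KT mouse, and the excess of 2.29-fold was not called (exact permutation, adjusted p = 0.12). Without mouse 6, a setting chosen after seeing the data, the KTC excess at this minimum passed. The KPTC value was 1.28-fold (exact permutation, adjusted p = 0.076).

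**Figure D4:**
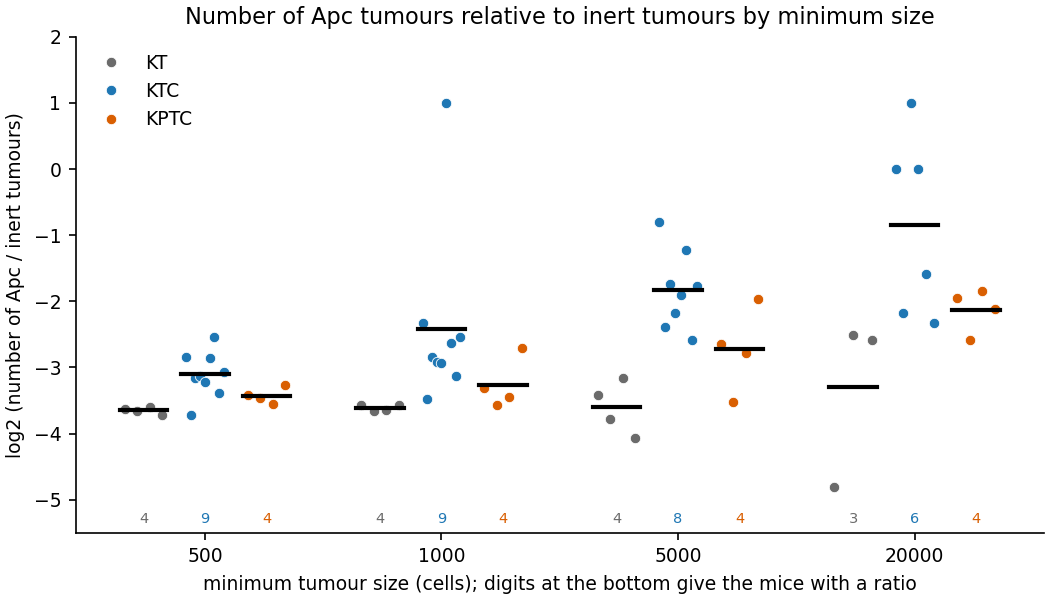
Log2 ratio of the number of Apc tumours to inert tumours of the same mouse at 4 minimum sizes, with points for mice, bars for means and the number of mice with a ratio at the bottom. The means stay near -3.6 in KT mice up to 5000 cells and go from -3.10 to -1.82 in KTC and from -3.42 to -2.73 in KPTC mice between 500 and 5000 cells.

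Set against all guides, not only the inert ones, the Apc share of tumours moved little with size or genotype, with no test. Apc tumours were 4.26% of all tumours of at least 500 cells in KT, 4.51% in KTC and 4.75% in KPTC, pooled over mice. Among tumours of at least 20000 cells they were 4.90% in KT (exact Clopper-Pearson 95% interval 2.38 to 8.83), 5.70% in KTC (3.41 to 8.85) and 5.33% in KPTC (3.74 to 7.33). The intervals cover counting error only. The number of Apc tumours per inert tumour, in contrast, stood at 0.076 for KT, 0.607 for KTC and 0.177 for KPTC mice among tumours of 20000 to 100000 cells. In that class 28 of 303 tumours were inert and 17 Apc in KTC, beside 105 and 8 of 195 in KT, and the rest carried guides against the other targeted genes.

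Burden, the summed cells of Apc tumours over those of inert tumours, combined both measures. The log2 ratios in KT mice were -3.48, -3.77, -3.09 and -3.58. In KTC mice they ran from -2.79 (mouse 5) to -0.68 (mouse 7) with a median of -2.31, and in KPTC mice they were -1.75, -2.61, -2.60 and -1.87. Neither Cas9 genotype overlapped with KT. Apc burden was 2.68-fold higher in KTC than in KT (95% interval 1.60 to 4.54, exact permutation, adjusted p = 0.0037, 9 of 9 mice) and 2.42-fold higher in KPTC (95% interval 1.39 to 4.06, exact permutation, adjusted p = 0.038, 4 of 4 mice).

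The burden calls held in all settings that left out 1 mouse. Without each gene's single largest tumour per mouse the burden was still 2.08-fold higher in KTC and 1.86-fold in KPTC mice, by exact permutation at adjusted p = 0.0019 and 0.038, so the single tumours shown above did not carry them alone. Without KTC mice 6 and 7 the KTC value was 2.21-fold (exact permutation, adjusted p = 0.0040). With shared barcodes left out it was 2.21-fold in KTC mice, at an adjusted p of 0.011 by exact permutation, and 1.91-fold in KPTC mice, where the call was lost (adjusted p = 0.086). Of the 13 guides, 46.2% (6) had a higher burden in KTC and 46.2% (6) in KPTC at an unadjusted exact permutation p under 0.05, with Apc#1 in both and 0 of the 5 inert guides in either. Between KTC and KPTC the log2 difference was 0.15 (95% interval -0.66 to 0.99, exact permutation, p = 0.71).

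Size above a fixed minimum also averages in small tumours that newly pass it. For number-matched size, as many of the largest Apc tumours were taken in each mouse as the KT ratio predicts from its inert tumours, which in KT mice 2 and 4 and KTC mouse 2 took in tumours under 500 cells, down to 455 cells. The log2 ratios were 0.15, -0.07, 0.31 and 0.14 in KT mice, 1.27, 0.62, 1.36 and 1.50 in KPTC mice, and from 0.79 (mouse 5) to 3.08 (mouse 7) with a median of 1.30 in KTC mice. All Cas9 mice lay above all KT mice. The difference from KT was 2.44-fold in KTC (95% interval 1.40 to 4.39, exact permutation, adjusted p = 0.0075), and for KPTC it was 2.08-fold (95% interval 1.25 to 2.97, exact permutation, adjusted p = 0.029). Without KTC mice 6 and 7 the KTC value was 1.97-fold (exact permutation, adjusted p = 0.0040). The KPTC call ended without any 1 KT mouse (exact permutation, adjusted p = 0.057 to 0.076). On this measure 100% of the 4 targeted genes passed in KTC and 100% in KPTC. KTC and KPTC differed by 0.23 on the log2 scale (95% interval -0.61 to 1.13, exact permutation, p = 0.59).

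The Apc ratios were next set against those of the other 3 targeted genes in the same mouse, each relative to its own KT mean, which cancels what a mouse's inert tumours share. In KTC mice Apc tumours were smaller than tumours with guides against Ambra1, the adaptor of an E3 ubiquitin ligase that acts on D-type cyclins, in 8 of 9 mice. The log2 size difference ran from -1.65 to 0.05 with a mean of -1.0 (95% interval -1.50 to -0.51, exact sign-flip test, adjusted p = 0.012). Apc tumours were larger than those carrying Rbm10 guides, whose target is an RNA-binding splicing regulator, in 8 of 9 mice, by 0.27 on average (95% interval 0.06 to 0.62, exact sign-flip test, adjusted p = 0.012). The values ran from -0.07 to 1.27, and the call was lost without KT mouse 2 (0.20, exact sign-flip test, adjusted p = 0.12). Against Rb1, the retinoblastoma protein gene, the difference was 0.23 and did not pass (95% interval -0.01 to 0.45, exact sign-flip test, adjusted p = 0.055), with 8 of 9 mice above 0. It passed without KT mouse 3 (exact sign-flip test, adjusted p = 0.035) or KTC mouse 1 (exact sign-flip test, adjusted p = 0.012). With shared barcodes left out, the differences from Ambra1 and Rbm10 no longer passed (-0.53 and 0.30, exact sign-flip test, adjusted p = 0.12 and 0.11), and that from Rb1 did (0.36, exact sign-flip test, adjusted p = 0.012). Ambra1 guides also shared barcodes between mice, in 54.6% to 83.6% of their tumours.

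For number in KTC mice, Apc lay below Ambra1 by a mean of -0.55 (exact sign-flip test, adjusted p = 0.035), and differed from Rb1 by 0.08 and from Rbm10 by -0.12 (exact sign-flip test, adjusted p = 0.50 each). For burden in KTC mice, Apc lay below Ambra1 in 9 of 9 mice by a mean of -1.40 (exact sign-flip test, adjusted p = 0.012), while Rb1 and Rbm10, 0.29 and 0.30 away, gave no call (exact sign-flip test, adjusted p = 0.18 and 0.32).

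With 4 KPTC mice the sign-flip test cannot go below 0.125, so these values are given without a call. Apc size lay below that of Ambra1 in 4 of 4 mice (mean log2 difference -1.27) and below that of Rb1 in 4 of 4 (mean -0.70, from -1.06 to -0.31). It differed from Rbm10 by 0.10, with 3 of 4 mice above 0. Apc number in KPTC lay above Rbm10 in 4 of 4 mice, by 0.38 to 0.61, above Ambra1 in 4 of 4 mice, by 0.07 to 0.24, and below Rb1 in 4 of 4 mice (mean -0.47, from -0.74 to -0.18). Apc burden in KPTC lay below Ambra1 (mean -1.32) and Rb1 (mean -2.04) in 4 of 4 mice and differed from Rbm10 by 0.61, with 3 of 4 mice above 0. The order of Apc and Rb1 in mean size thus was not the same in the 2 Cas9 genotypes, which was not tested for this pair of genes. By the mean absolute difference of log2 size over all 17 mice, each gene against its KT mean, Rbm10 was the gene with values nearest to Apc (0.24), followed by Rb1 (0.37) and Ambra1 (0.86).

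**Figure D5:**
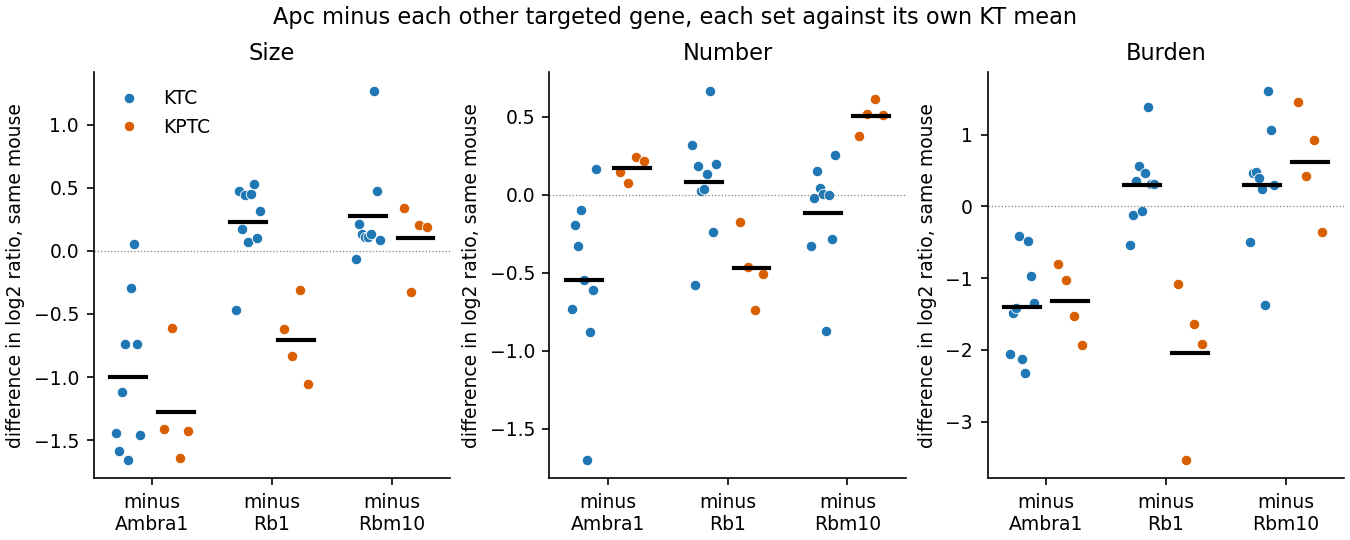
Log2 ratio of Apc minus that of Ambra1, Rb1 or Rbm10 in the same mouse, each first set against its own KT mean, for size, number and burden. Points are KTC (n = 9) and KPTC (n = 4) mice and black bars are means. Values below 0 mean that Apc was lower, as for size against Ambra1 in 8 of 9 KTC and 4 of 4 KPTC mice.

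Within the KTC mice the Apc ratios were set against the number of inert tumours. Over the 9 mice the log2 number ratio of Apc fell with the log2 number of inert tumours (Pearson r = -0.78, exact permutation, p = 0.015, adjusted over 3 measures 0.039, Spearman rho = -0.77, exact permutation, adjusted p = 0.047). Without mice 6 and 7, the farthest from the median, r was -0.81 (exact permutation, unadjusted p = 0.034). The call was lost without KTC mouse 2, 3, 5, 7 or 9 (r from -0.79 to -0.69, exact permutation, adjusted p = 0.058 to 0.079) and at minimum sizes of 200 cells (r = -0.63, adjusted p = 0.21) and 5000 cells (r = -0.57, adjusted p = 0.27). Whether the other targeted genes showed such a fall was not tested, so it cannot be called particular to Apc. Relative to KT, Apc number minus that of Ambra1, Rbm10 and Rb1 was -1.70, -0.87 and 0.14 in mouse 6. These differences were -0.88, -0.0044 and 0.67 in mouse 7, and -0.19, -0.022 and -0.58 in mouse 2. The inert number is also the denominator of the ratio. With the inert number taken from the Neo guides and the ratio from the NT guides, r was -0.84 (exact permutation, adjusted p = 0.010), and with shared barcodes left out it was -0.05 (exact permutation, adjusted p = 0.89). For burden r was -0.74 (exact permutation, adjusted p = 0.039) and rho -0.73 (exact permutation, adjusted p = 0.047), but r was -0.44 without mice 6 and 7 (exact permutation, p = 0.31), so that this relation rests on them. The burden call was also lost without mouse 2, 3, 5, 7 or 9 (exact permutation, adjusted p = 0.058 to 0.071) and at 200 and 5000 cells (adjusted p = 0.38 and 0.27). For size r was -0.65 (exact permutation, p = 0.054) and rho -0.38 (exact permutation, p = 0.31), and r turned to 0.44 without these mice (exact permutation, p = 0.34), while with shared barcodes left out it was -0.87 (exact permutation, adjusted p = 0.011) and without mouse 1 it was -0.71 (exact permutation, adjusted p = 0.047).

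Sex was compared in KTC mice alone, the 1 Cas9 genotype with both sexes. The log2 size ratio of Apc was 0.74 ± 0.21 in the 5 females and 1.02 ± 0.40 in the 4 males (SD), a difference of -0.28 (exact permutation, p = 0.24, adjusted over 3 measures 0.33). For number and burden the differences, female minus male, were -0.25 and -0.49 (exact permutation, adjusted p = 0.33 each). Mice 6 and 7, with the fewest tumours, are both male, and male KTC mice had a median of 303.5 inert tumours beside 969 in females. The part of tumour number in the values of each sex was not tested.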

How the data were processed

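Values are from 3 deposited tables, 1 per genotype, with a neoplastic cell number for each guide, barcode and mouse. Per the labels' protocols, bulk lung tissue with tumours was lysed together with 500000 cells of each of 3 benchmark lines, guide and barcode were amplified from the genomic DNA by PCR, and the authors used the benchmark lines to turn barcode reads into absolute cell numbers. For read trimming and barcode clustering the method is not given in the sources used here, and strain and age are likewise unstated. No count model was used, since the deposited values are cell numbers.

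The smallest value of a mouse, divided by 2, was taken as the worth of 1 read, since 100% of its values were whole multiples of it (tolerance 0.1). No molecular identifiers are described and several reads can copy 1 molecule, so intervals from counts cover counting error only. Values of KPTC mice 3 and 4 are written with up to 15 digits and those of the other mice with 7 or 8. These 2 mice were also tested apart. The allele behind K in the genotype names is not reported here.

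Tumours under 500 cells were left out, except in number-matched size and where another minimum is named. Size, number and burden were log2 ratios to the 5 inert guides in the same mouse. Genotypes were compared by two-sided exact permutation of mouse labels (smallest p 0.0014 for 9 against 4 mice), and genes within mice by exact sign-flip tests. Benjamini-Hochberg adjustment ran over the 4 targeted genes (or 5 inert guides, 3 other genes or 3 measures) with a threshold of 0.05. The 95% intervals of differences came from inverting the exact tests and are not adjusted. P-values measure the spread between these mice, and those for genes within mice leave out the spread of the KT mice. Comparisons with KT share the KT mice. Alternatives were other minimum sizes (200, 1000 and 5000 cells, or none), each mouse or inert guide left out, shared or 1-mismatch barcodes left out, at least 10 reads, male mice, other size measures and adjustment over 8 guides. Mice 6 and 7 left out of KTC, KTC mouse 6 left out at 1000 cells, KPTC mouse 1 left out at 200 cells and the split of inert guides in the correlation were chosen after seeing the data. The guide, the comparison genes and the tests were chosen with earlier results of these data known. The rule for named genes took Apc and, with no selection, the other targeted genes and inert guides. Scripts were tested on simulated data and used numpy 2.4.6, scipy 1.17.1, pandas 2.3.3 and matplotlib 3.10.9 under Python 3.11.15.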

Additional observations from a re-analysis of the deposited data

Results flagged for a closer look

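In KTC mouse 7 the number-matched size of Apc tumours stood apart from the other KTC mice. Its log2 ratio to inert tumours was 3.08, the next highest was 1.92 (mouse 6), and the gap was 0.505 of the whole range of the 9 mice, which is above the critical value of Dixon's test at 95% for 9 values. The value rests on the 8 largest Apc tumours of that mouse, of which 1 had 66837.7 cells. Of 12 sets of values looked at in this way (size, number, burden and number-matched size in each genotype) 1 was marked. Chance marks about 1 in 20 separate sets, but these sets share mice and are not separate. Without mouse 7 and mouse 6 the number-matched difference between KTC and KT was 0.98 (1.97-fold, exact permutation, adjusted p = 0.0040).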

How the results depend on the processing

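Values here are log2 differences, except that those for the spread of log size are differences in the SD of natural log size. All come from exact tests over mice, unless named otherwise. No paired analysis was possible because mice of different genotypes share no numbers in the labels and the numbers used here are names only. The mice set most limits: 4 KPTC and 4 KT mice cannot give a p below 0.029, and with 2 male KT mice or 2 KPTC mice the smallest p is 0.067, so a loss there says nothing on stability. KTC mouse 6 holds 4 Apc tumours, and in KPTC mouse 1 500 cells rest on 3.80 reads. Where a value below changed sides, the cause was not tested unless fewer mice entered.

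For KTC against KT, the size call was lost at 5000 cells (0.37) and in male mice (0.93). The number call was lost at 200 cells (0.17), at 1000 cells (1.19), with shared barcodes left out (0.24) and in male mice (0.66). At 1000 cells it held without KTC mouse 6. Over all listed barcodes the value was -0.0081. In male mice the calls for burden (1.64), number-matched size (1.60) and number at 5000 cells (1.61) were lost too. Without single mice the number difference ran from 0.47 to 0.62.

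For KPTC against KT, the size call was lost at 5000 cells (0.59), with shared barcodes left out (0.99), in male mice (0.81), with KPTC mice 1 and 2 (0.55) or 3 and 4 (1.01) alone, with the geometric mean (0.32) and in the sign-flip test of the ratio itself (0.91, smallest p 0.125). The number-matched size call was lost with shared barcodes left out (0.92), in male mice (1.06), with mice 1 and 2 (0.82) or 3 and 4 (1.30) alone and in the sign-flip test (1.19). The burden call was lost with shared barcodes left out (0.93), in male mice (1.22) and with mice 1 and 2 (1.30) or 3 and 4 (1.25) alone. The number call was lost at 200 cells (0.086, and 0.060 without KPTC mouse 1), 1000 cells (0.35) and 5000 cells (0.88), over all listed barcodes (0.17), with shared barcodes kept in 1 mouse (0.20) or left out (0.010), without NT1 (0.20), Neo1 (0.23) or Neo2 (0.23), with at least 10 reads (0.25), in male mice (0.20), with mice 1 and 2 (0.21) or 3 and 4 (0.24) alone and adjusted over 8 guides (0.22). Without single mice the ranges were 0.67 to 0.95 for size, 0.95 to 1.24 for number-matched size, 0.17 to 0.27 for number and 0.62 to 1.14 for number at 5000 cells. The number of tumours of at least 20000 cells turned to -0.16 with shared barcodes left out, and median size to -0.0057 with mice 1 and 2.

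Between KTC and KPTC no difference passed in the main setting. The numbers at 5000 and 20000 cells stayed higher in KTC in all settings tried (0.55 to 1.26 and 0.17 to 1.57). The other measures changed direction in some settings. Size turned from -0.043 to 0.080 at 200 cells (0.087 without KPTC mouse 1), 0.11 in male mice, 0.19 with KPTC mice 1 and 2, 0.13 with the geometric mean, 0.10 at the 95th percentile and 0.23 with number-matched tumours. Number turned to -0.18 over all listed barcodes. Burden turned to -0.12 at 200 cells and -0.13 without KTC mice 6 and 7. Number-matched size turned to -0.10 at 5000 cells, -0.010 with KPTC mice 3 and 4 and -0.080 without KTC mice 6 and 7. Number at 5000 cells passed without Neo2 (0.96). Median size turned to -0.086 at 1000 cells (-0.11 without KTC mouse 6) and -0.00076 with KPTC mice 3 and 4. The 95th percentile turned to -0.51 at 5000 cells, -0.18 with at least 10 reads and -0.090 without KTC mice 6 and 7. The spread of log size turned to 0.022 at 200 cells (0.028 without KPTC mouse 1), 0.0025 without NT2, 0.041 in male mice and 0.023 with KPTC mice 1 and 2. Without single mice the ranges were -0.22 to 0.066 for size, 0.25 to 0.40 for number, 0.64 to 1.16 for number at 5000 cells, -0.027 to 0.30 for burden and -0.056 to 0.020 for the spread.

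Within KTC mice, the size of Apc minus Ambra1 no longer passed at 1000 cells (-0.66) or with shared barcodes left out (-0.53) and was 0.039 at 5000 cells. Apc minus Rb1 passed at 200 cells (0.28), with shared barcodes left out (0.36) and with the geometric mean (0.20), and was -0.092 at the 95th percentile. Apc minus Rbm10 no longer passed at 200 cells (0.0093), 1000 cells (0.40), 5000 cells (0.48), the 95th percentile (0.29) or with shared barcodes left out (0.30), and in KPTC mice it was -0.031 with the geometric mean. Without single mice Apc minus Rb1 ran from 0.18 to 0.32 and Apc minus Rbm10 from 0.15 to 0.32. Female minus male values of Apc turned to 0.018 for size at 200 cells, and to 0.055 for number and 0.031 for burden at 5000 cells. The setting that left out 1-mismatch barcodes removed 0 of 1318841 barcodes.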

Other observations

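The random bases of Apc#1 barcodes were not evenly used. Over the 38062 different Apc#1 barcodes, C made up 10.2% of the random bases, G 23.8%, A 32.0% and T 34.0%, whereas over the barcodes of all inert guides C made up 20.6% and G 32.5%. The composition was alike at all sizes in KTC mice (C 10.2% of listed Apc barcodes and 9.29% of those of at least 5000 cells). Of the 13 guides, Apc#1 had the lowest share of C, while Neo1 had the lowest share of T (10.6%).

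The guides differed in how often a barcode recurred in several mice. Of the listed Apc#1 barcodes 52.3% occurred in several mice, beside 40.9% for NT2, 8.72% for Neo2 and 81.1% for Ambra1#1. The barcode of an Apc tumour was listed in up to 7 mice. In contrast, 4.59% of Apc tumours had the same barcode at 500 cells or more in another mouse, beside 1.07% of inert tumours. The part of barcode use in this sharing was not tested, nor was whether a barcode listed in several mice arose separately in each, so counts of Apc tumours may include barcodes that are not tumours of that mouse.

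The share of Apc#1 among the barcodes of Apc and inert guides at any size averaged 7.0% ± 0.33 over the 4 KT mice, 6.97% ± 0.44 over the 9 KTC mice and 7.80% ± 0.40 over the 4 KPTC mice (SD each). On the log2 scale of the ratio to inert barcodes, KPTC lay above KT by 0.17 (1.12-fold, exact permutation, adjusted p = 0.057), and KTC lay below KPTC by a difference of -0.18 (exact permutation, p = 0.015, adjusted 0.062). These shares cover different size ranges, since the smallest listed barcode was at 2.15 cells in one mouse (KT mouse 4) and at 263 cells in another (KPTC mouse 1).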
